A study of Homo sapiens with 12 samples.

Results

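Progression through the cell cycle was followed through 60 genes of the cycle and of mitosis, chosen by symbol from the 32152 genes with deposited values. All 60 were found and all 60 passed the filter on low values. By their textbook roles they were split into 32 genes of G1 and S phase (G1/S) and 28 genes of G2 phase and mitosis (G2/M). RNA was sequenced from MDA-MB-231 and Hs-578T, established human cell lines of triple-negative breast cancer, in 12 libraries that form 6 groups of 2. Each line had parental control cells, cells labelled ERK5-ko and cells labelled MEK5DD. The sample records list the same confluence for all 12 libraries. ERK5 is a mitogen-activated protein kinase encoded by MAPK7, MEK5 (MAP2K5) is the kinase that activates it, and MEK5DD is MEK5 altered so that it is always active. The ERK5-ko cells were made by CRISPR/Cas9 with guides to MAPK7 exons and grown out of single sorted cells, so a line labelled ERK5-ko is a clone, whereas the parental cells were not cloned. For MDA-MB-231 a lone clone survived, and which Hs-578T clone was sequenced is not given in the sources used here. How the MEK5DD cells were made, and the promoter that drives MEK5DD, are not given either. The labels carry numbers read here as passages, 29 and 30 in MDA-MB-231 parental, 7 and 8 in MDA-MB-231 ERK5-ko and 10 and 11 in MDA-MB-231 MEK5DD libraries. In Hs-578T they are 83 and 84 in parental libraries and 8 and 9 in both other groups. According to the paper, the cells that were edited were already at higher passages than the ERK5-ko numbers. Whether those numbers count from cloning is not given. Against parental cells, the label, the cloning and the passage therefore cannot be told apart.

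Cells commit to division in G1, when D cyclins with CDK4 and CDK6, and then cyclin E with CDK2, phosphorylate the retinoblastoma protein and free E2F transcription factors. E2F switches on the genes that license replication origins and make DNA, such as CDT1, CDC6, the MCM helicase subunits and the enzymes of nucleotide supply, while the inhibitors p21 (CDKN1A) and p27 (CDKN1B) hold the kinases back. Later the MuvB complex with MYBL2 and FOXM1 activates the G2/M genes, among them cyclin B, the Aurora and Polo kinases, kinetochore proteins and spindle motors. RNA of G2/M genes such as MKI67 is therefore abundant in cycling populations and scarce in resting cells. In RNA from whole cultures, fewer cells in a phase and less RNA per cell cannot be told apart.

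Values are RPKM, reads on a gene scaled to the length of its gene model and to the reads of its library. The model lengths, solved from the values, were 1206 bases for CCND1 and 2789 for CCNA2. GENCODE 29 gives 4830 and 2798 exon bases for these genes, so levels of different genes can be compared only roughly. Library totals solved from the values lay between 20248162 and 27791195 reads. ERK5-ko libraries did not have less MAPK7 RNA, with an RPKM of 13.3 and 14.3 in parental and 16.3 and 17.8 in ERK5-ko libraries of MDA-MB-231, and 13.97 and 15.98 against 17.8 and 18.1 in Hs-578T. RNA from an edited gene need not be lost, so this level checks neither the edit nor the protein, and directions refer to the labels. MAP2K5 stood at 12.9 and 13.6 in parental and 188 and 184 in MEK5DD libraries of MDA-MB-231, and at 14.6 and 16.9 in parental and 21.3 and 23.8 in MEK5DD libraries of Hs-578T. As a check of the lines, VIM lay between 1598 and 4067 in all 12 libraries and ESR1 was at or below 0.120. In 2 Hs-578T libraries, parental replicate 1 and MEK5DD replicate 1, genes with long models (at least 3326 bases) were low against genes with short ones (at most 889 bases). Their long minus short difference was -0.471 and -0.488 on the log2 scale, against -0.0252 to 0.256 in the other 10 libraries, a pattern that can reflect RNA quality, whose part in the results was not tested.

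Differences were taken on log2(RPKM + 0.5), a scale that shrinks the change of genes with low RPKM. They were fitted with limma over 13737 protein-coding genes and all 12 libraries, and a gene passed at a Benjamini-Hochberg adjusted p under 0.05. For 1 gene in 2 libraries against 2, the smallest two-sided p of an exact permutation test is 0.333. The 2 libraries of a group carry different passage numbers, but no source says how they relate as cultures, so the p values measure only the spread between these libraries. A value before an adjusted p in parentheses is a log2 difference. Comparisons with parental cells share the parental libraries of their line.

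The mean level of the G2/M genes moved in opposite directions in the 2 lines. In MDA-MB-231 it was 6.48 and 6.49 in parental libraries, 5.71 and 5.70 in ERK5-ko libraries and 6.91 and 6.85 in MEK5DD libraries, as the mean of log2(RPKM + 0.5) over the 28 genes. In Hs-578T it was 5.36 and 5.35, 6.09 and 6.19, and 4.40 and 4.78 in the same order. The ERK5-ko libraries were thus the lowest of the 3 groups in MDA-MB-231 and the highest in Hs-578T, and no 2 groups of a line overlapped. The G1/S genes had mean levels of 5.73 and 5.75 in parental, 5.42 and 5.44 in ERK5-ko and 6.07 and 6.03 in MEK5DD libraries of MDA-MB-231. Their levels in Hs-578T were 4.42 and 4.37, 5.08 and 5.21, and 3.89 and 4.05. The pooled SD between replicates was 0.0616 for the G1/S level and 0.117 for the G2/M level.

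**Figure D1:**
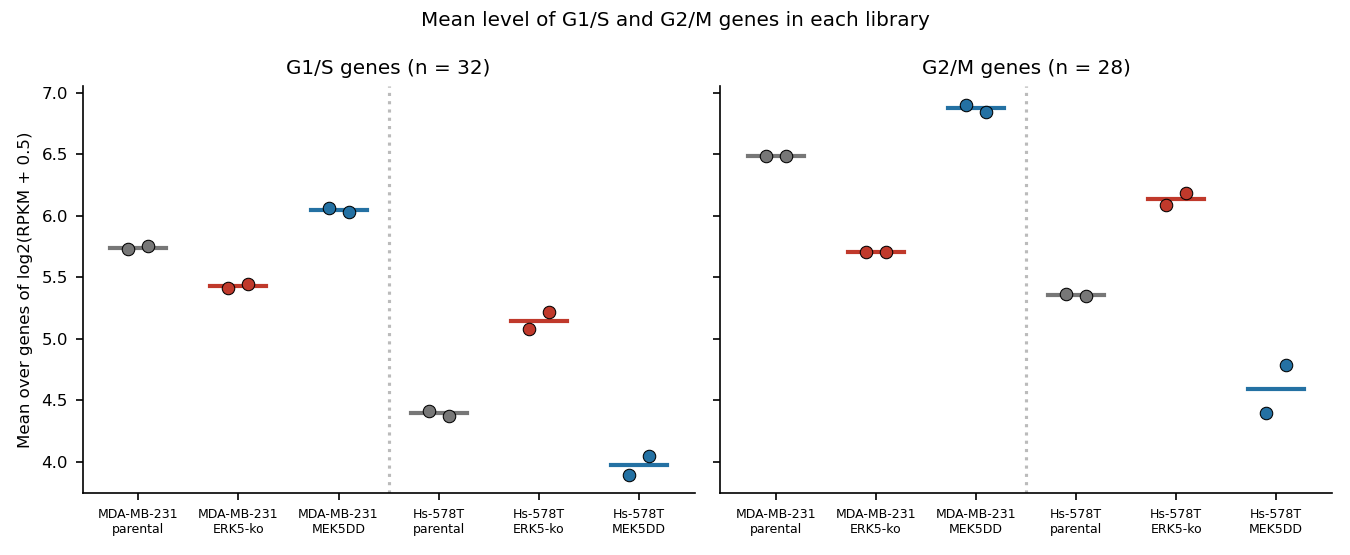
Mean over genes of log2(RPKM + 0.5) for the 32 G1/S genes (left) and the 28 G2/M genes (right), on an axis that does not start at 0. Each point is a library, each bar the mean of the 2 libraries of a group, and the dotted line parts the cell lines. In MDA-MB-231 the order from low to high is ERK5-ko, parental, MEK5DD, and in Hs-578T it is MEK5DD, parental, ERK5-ko.

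The promoters of the 2 lists differ in the short motifs they hold, and those of 4 G2/M and 4 G1/S genes are shown for this reason. A 300-base RefSeq promoter window (250 bases before to 50 after the start of the gene, GRCh38.p14) was at hand for 47 of the 60 genes, 25 G1/S and 22 G2/M. Both strands were searched for 3 motifs. These were the letters of the E2F site (TTTGGCGC, TTTCCCGC, TTTCGCGC or TTTGCCGC), the letters TTTGAA of the cell cycle homology region (CHR), the element through which MuvB binds, and CCAAT, the letters read by NF-Y. In the promoters below, shown 5′ to 3′ on the strand of the gene, the capitals mark these letters on either strand, with up to 20 bases on each side. Neighbouring motifs share bases in 2 of them, a CHR and a CCAAT match in MKI67 and E2F letters on both strands in MCM2. All 4 G2/M examples hold CHR letters and CCAAT, and all 4 G1/S examples hold E2F letters, so they do not stand for their whole lists. The windows of CCNA2 and CCNB1, for example, hold no CHR letters.
MKI67 (chr10:128126423-128126541, - strand): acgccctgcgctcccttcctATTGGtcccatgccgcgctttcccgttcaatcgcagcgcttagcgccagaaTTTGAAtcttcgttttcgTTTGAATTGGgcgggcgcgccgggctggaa
TOP2A (chr17:40417925-40418146, - strand): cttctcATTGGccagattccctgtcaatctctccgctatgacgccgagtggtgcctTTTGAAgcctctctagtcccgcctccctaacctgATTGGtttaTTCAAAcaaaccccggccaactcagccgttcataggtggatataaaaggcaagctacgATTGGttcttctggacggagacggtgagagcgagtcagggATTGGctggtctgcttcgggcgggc
CDC20 (chr1:43358783-43358950, + strand): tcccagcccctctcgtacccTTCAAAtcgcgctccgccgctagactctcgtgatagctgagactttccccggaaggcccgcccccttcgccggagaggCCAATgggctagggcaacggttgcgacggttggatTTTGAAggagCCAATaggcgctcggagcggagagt
PLK1 (chr16:23678796-23678885, + strand): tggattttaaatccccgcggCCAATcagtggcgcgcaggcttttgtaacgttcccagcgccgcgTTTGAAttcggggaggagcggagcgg
E2F1 (chr20:33686378-33686584, - strand): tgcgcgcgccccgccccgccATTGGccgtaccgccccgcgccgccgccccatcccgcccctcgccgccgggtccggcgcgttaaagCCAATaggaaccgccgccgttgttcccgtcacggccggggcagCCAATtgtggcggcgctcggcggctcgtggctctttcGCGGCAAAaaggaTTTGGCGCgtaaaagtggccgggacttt
CDC6 (chr17:40287733-40287913, + strand): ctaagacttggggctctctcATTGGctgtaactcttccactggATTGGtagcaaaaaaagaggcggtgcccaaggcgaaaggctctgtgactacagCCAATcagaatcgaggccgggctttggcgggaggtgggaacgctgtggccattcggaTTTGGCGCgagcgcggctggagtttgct
MCM2 (chr3:127598393-127598444, + strand): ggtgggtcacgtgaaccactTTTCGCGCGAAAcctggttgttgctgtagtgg
PCNA (chr20:5126623-5126794, - strand): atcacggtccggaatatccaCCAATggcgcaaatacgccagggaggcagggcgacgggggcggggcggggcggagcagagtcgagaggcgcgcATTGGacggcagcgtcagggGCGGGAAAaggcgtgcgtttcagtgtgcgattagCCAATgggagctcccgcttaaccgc

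The CHR letters stood in 13 of the 22 G2/M promoters (59.1%) and 1 of the 25 G1/S promoters (4%), that of RRM1, against 15.4% of 27305 promoters of the same length. E2F letters stood in 11 G1/S promoters (44%) and 2 G2/M promoters (9.09%), those of CDK1 and CENPA, against 3.33% of all. CCAAT was found in 16 G2/M (72.7%) and 13 G1/S promoters (52%), against 35.7% of all, and CHR letters together with CCAAT in 10 G2/M (45.5%) and 1 G1/S promoter, against 6.08%. None of the 3 motifs was found in CCND3, CDK4, CDK6, CDKN1A, CCNE1, MYBL2, GMNN, BRCA1, CDC25B, CDC25C and CENPE. A match of letters is a description of these windows and shows no binding.

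In MDA-MB-231, the libraries labelled ERK5-ko had less RNA of nearly every G2/M gene than the parental libraries. Of the 28 G2/M genes, 26 were lower and 0 higher, where 10.4% of all tested genes were lower and 6.91% higher. Their median difference was -0.77 on the log2 scale, a fold of 0.585, beside -0.04 over all genes. Of the 32 G1/S genes, 13 were lower and 2 higher, with a median difference of -0.32. At an unadjusted p under 0.05, 0 G2/M genes were higher and 20 G1/S genes lower, and limma voom on the recovered reads also gave 0 G2/M genes higher.

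MKI67, which encodes the proliferation antigen Ki-67 (GRCh38 chr10:128096659-128126385), had an RPKM of 59.2 and 56.98 in parental and 27.1 and 23.7 in ERK5-ko libraries. CCNB1, cyclin B1, stood at 265 and 268 against 154 and 169.8. CDC20, an activator of the anaphase-promoting complex, stood at 154 and 164 against 91.3 and 108. For all 3 genes, each ERK5-ko library lay below each parental library, as for all 28 G2/M genes. The log2 difference was -1.18 (standard error 0.317, adjusted p = 0.0252) for MKI67, -0.72 (standard error 0.115, adjusted p = 0.00171) for CCNB1 and -0.68 (standard error 0.146, adjusted p = 0.00876) for CDC20. The paper that reported these data found no significant change in Ki-67 protein staining of MDA-MB-231 cells after the knock-out. RNA and staining are different measures, and how they relate here was not tested.

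Among the G2/M genes that passed, MKI67, CENPE and KIF11 had the lowest differences, and their gene models are long, at 6435, 3822 and 4838 bases. With gene length corrected and the replicate block, a setting chosen after seeing the data, 0 G2/M calls of this comparison were lost. CENPE, a kinesin of the kinetochore, had an RPKM of 33.2 and 29.7 in parental and 16.4 and 13.2 in ERK5-ko libraries, a log2 difference of -1.07 (standard error 0.255, adjusted p = 0.0145). KIF11, the motor that pushes spindle poles apart, had 36.2 and 35.1 against 18.9 and 16.5, a log2 difference of -0.99 (standard error 0.171, adjusted p = 0.00249). All 7 mitotic kinases and spindle checkpoint genes and all 3 genes of anaphase control were lower. So were all 4 genes of the group of spindle motors and TPX2, a spindle assembly factor. Among the 7 genes of mitotic entry, 6 were lower, and CDC25B, a phosphatase that activates CDK1, had a log2 difference of -0.20 (adjusted p = 0.216). CENPF was the other member that did not pass, with an RPKM of 119 and 105 in parental and 59.4 and 44.9 in ERK5-ko libraries and a log2 difference of -1.11 (adjusted p = 0.0663). With the replicate number as a block CENPF was lower too (adjusted p = 0.00329).

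TOP2A, the topoisomerase that untangles chromosomes, had an RPKM of 394 and 403 in parental and 236 and 203 in ERK5-ko libraries of MDA-MB-231. CCNA2, cyclin A2, stood at 70.3 and 68.7 against 44.1 and 45.9, and CDK1, the mitotic kinase, at 117 and 112 against 69.7 and 71.5. In each of these genes the groups were apart by more than the gap between replicates. Their log2 differences were -0.86 (adjusted p = 0.0112), -0.62 (adjusted p = 0.00177) and -0.69 (adjusted p = 0.00711).

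In the G1/S list of MDA-MB-231, of 10 licensing and firing genes 7 were lower in ERK5-ko libraries, CDT1, CDC6, GMNN, MCM3, MCM4, MCM7 and CDC45. CDT1, which loads the MCM helicase (GRCh38 chr16:88803213-88809258), had an RPKM of 12.8 and 13.9 in parental and 6.25 and 6.61 in ERK5-ko libraries, a log2 difference of -0.997 (standard error 0.109, adjusted p = 0.000146), the lowest in the list. CDC25A, the phosphatase that activates CDK2, had 15.96 and 15.3 against 8.25 and 8.53, a log2 difference of -0.86 (standard error 0.114, adjusted p = 0.000499). BRCA1, a DNA repair factor made in S phase, had 20.2 and 18.03 against 11.9 and 9.55, a log2 difference of -0.81 (standard error 0.220, adjusted p = 0.0264). In all 3 the ERK5-ko libraries lay below the parental ones.

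Other G1/S genes of this comparison are given by their values. PCNA, the sliding clamp of the polymerases, stood at 180.2 and 176 in parental and 139.7 and 149 in ERK5-ko libraries, a log2 difference of -0.30 (adjusted p = 0.0815). MCM2 stood at 73.5 and 76.4 against 59.5 and 62.4 (-0.30, adjusted p = 0.0632), and with the block its adjusted p was 0.0469. E2F1 at 47.9 and 49.1 against 39.7 and 49.03 and CCNE1, cyclin E1, at 12.3 and 13.1 against 10.4 and 10.8 had log2 differences of -0.14 (adjusted p = 0.568) and -0.25 (adjusted p = 0.148). Of the 5 E2F and MYB factors, only E2F8 was lower, with -0.58. With the block, E2F7, RRM2 and CHEK1 were lower as well. Leaving out 1 library moved the count of lower G1/S genes from 13 to 6 without ERK5-ko replicate 1, 8 without ERK5-ko replicate 2, 7 without parental replicate 1 and 5 without parental replicate 2. Fitted on the 6 libraries of MDA-MB-231 alone, 20 G1/S and 27 G2/M genes were lower. PCNA (adjusted p = 0.0132), MCM2 (adjusted p = 0.00934) and CCNE1 (adjusted p = 0.0397) were among them, and E2F1 (adjusted p = 0.374) was not. With a fold below 0.5 also required, 0 G1/S and 2 G2/M genes were lower.

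**Figure D2:**
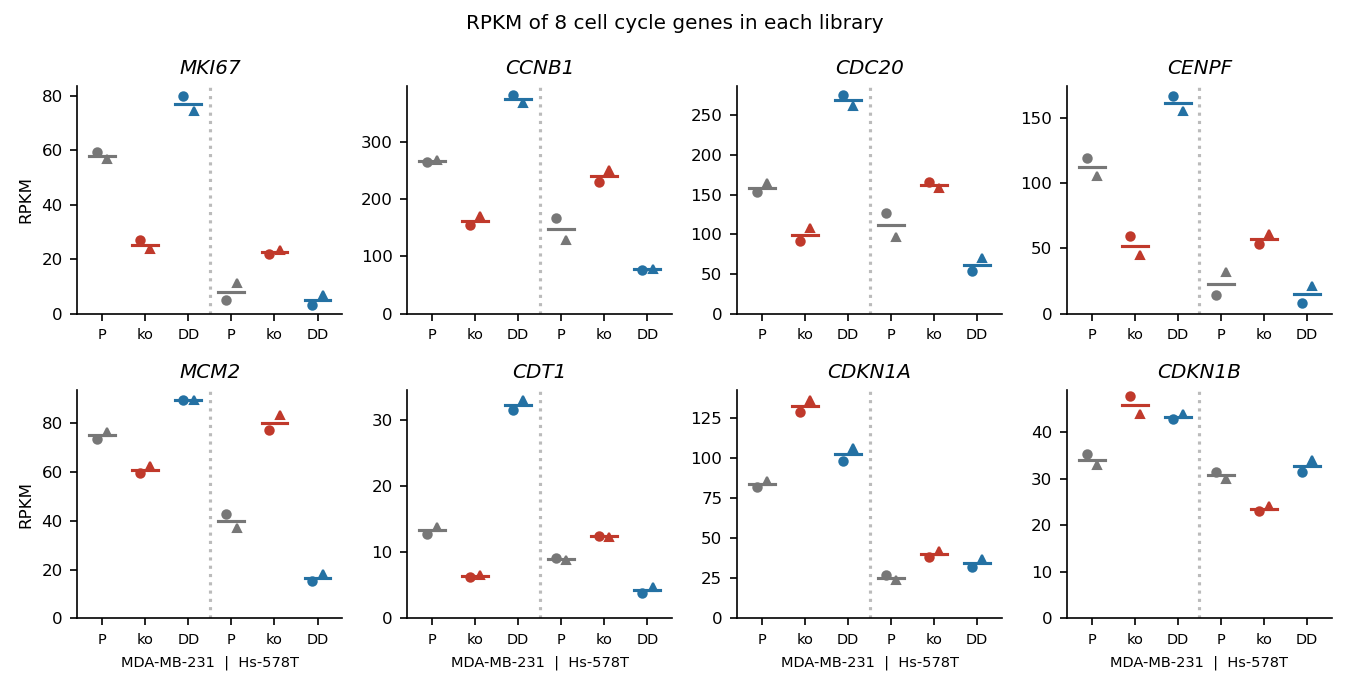
RPKM of 8 genes in the 12 libraries, with axes that start at 0. Circles are replicate 1, triangles replicate 2 and bars group means of parental (P), ERK5-ko (ko) and MEK5DD (DD) libraries. The first 6 genes go down and then up in MDA-MB-231 and up and then down in Hs-578T as one reads from P to ko to DD, whereas CDKN1A is lowest in parental libraries of both lines and CDKN1B is lowest in MDA-MB-231 parental and Hs-578T ERK5-ko libraries.

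MEK5DD libraries of MDA-MB-231 had more RNA of many of these genes than parental libraries. In the G1/S list 19 of 32 genes were higher and 0 lower, and in the G2/M list 12 of 28 were higher and 0 lower, where 17.5% of all tested genes were higher and 23.8% lower. The median differences were 0.32 for G1/S and 0.39 for G2/M genes, beside -0.01 over all genes. At an unadjusted p under 0.05, 1 G1/S gene and 0 G2/M genes were lower, and limma voom on recovered reads gave 0 lower in either list. With the replicate block 1 G1/S gene, MCM6, was lower (adjusted p = 0.0381).

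CDT1 showed the highest difference in either list, with an RPKM of 12.8 and 13.9 in parental and 31.6 and 33.1 in MEK5DD libraries, a log2 difference of 1.25 (standard error 0.109, adjusted p = 3.9e-06). E2F8, a repressor among the E2F factors, stood at 15.8 and 16.2 against 28.1 and 25.6, a log2 difference of 0.73 (standard error 0.142, adjusted p = 0.00155). CCND2, cyclin D2, was nearly silent in this line, at 0.143 and 0.274 in parental and 0.738 and 0.841 in MEK5DD libraries, and its log2 difference of 0.87 (standard error 0.119, adjusted p = 0.000135) is that of a level under 1 RPKM. These 3 genes were apart in all libraries of the 2 groups.

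All 4 genes of DNA synthesis and nucleotide supply were higher in MDA-MB-231 MEK5DD libraries, PCNA, RRM1, RRM2 and TYMS. PCNA stood at 180.2 and 176 in parental and 236 and 225 in MEK5DD libraries (0.37, adjusted p = 0.0186). RRM2, the inducible subunit of ribonucleotide reductase, had a log2 difference of 0.66 (adjusted p = 0.00281), and TYMS, thymidylate synthase, one of 0.51 (adjusted p = 0.00874). MCM2 stood at 89.6 and 89.7 in MEK5DD libraries (0.26, adjusted p = 0.0603, and 0.0496 with the block), E2F1 at 55.1 and 55.95 (0.19, adjusted p = 0.296) and CCNE1 at 13.6 and 13.3 (0.08, adjusted p = 0.624). Of the 5 E2F and MYB factors, E2F2 and E2F8 were higher.

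Among the G2/M genes the highest differences were those of AURKB, NUF2 and CDC20. AURKB, the kinase of the chromosomal passenger complex, had an RPKM of 70.99 and 78.1 in parental and 138 and 147 in MEK5DD libraries, a log2 difference of 0.93 (standard error 0.134, adjusted p = 0.000192). NUF2, a subunit of the NDC80 complex that binds microtubules, had 67.2 and 65.1 against 124 and 119, a log2 difference of 0.87 (standard error 0.0887, adjusted p = 1.32e-05). CDC20 had 154 and 164 against 276 and 262, a log2 difference of 0.76 (standard error 0.146, adjusted p = 0.00147). All 3 genes of anaphase control (CDC20, UBE2C and PTTG1) and 3 of 5 kinetochore genes were higher.

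Other G2/M genes of MDA-MB-231 did not pass with MEK5DD. MKI67 stood at 79.8 and 74.3 in MEK5DD libraries, above both parental libraries, with a log2 difference of 0.40 (adjusted p = 0.344). TOP2A at 462 and 405 had a log2 difference of 0.12 (adjusted p = 0.685), CCNA2 at 76.1 and 69.8 one of 0.07 (adjusted p = 0.64) and CDK1 at 148 and 132 one of 0.29 (adjusted p = 0.136). CCNB1 was higher, at 382 and 367 (0.49, adjusted p = 0.00523). Fitted on the 6 libraries of the line alone, 20 G2/M genes were higher in place of 12. In that fit MKI67 (adjusted p = 0.01185) and CDK1 (adjusted p = 0.0178) were higher, whereas TOP2A (adjusted p = 0.364) and CCNA2 (adjusted p = 0.334) did not pass. With a fold above 1.5 also required in the main fit, 6 G1/S and 5 G2/M genes were higher. With the block FOXM1, BIRC5, KIF23 and TPX2 were higher too. The count of higher G1/S genes fell from 19 to 8 without MEK5DD replicate 1, 11 without MEK5DD replicate 2, 7 without parental replicate 1 and 8 without parental replicate 2.

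Hs-578T libraries labelled ERK5-ko had more RNA of almost all 60 genes than parental libraries. In the G1/S list 29 of 32 genes were higher and 2 lower, and in the G2/M list 27 of 28 were higher and 0 lower, where 19.7% of all tested genes were higher and 19.7% lower. The median differences were 0.82 for the G1/S and 0.71 for the G2/M genes, folds of 1.77 and 1.63, beside 0.01 over all genes. At an unadjusted p under 0.05 and by limma voom on recovered reads, 0 G2/M genes were lower.

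CDC25A, E2F8 and E2F1 had the highest differences in the G1/S list. CDC25A had an RPKM of 1.88 and 2.25 in parental and 5.85 and 6.40 in ERK5-ko libraries, a log2 difference of 1.37 (standard error 0.114, adjusted p = 5.53e-06). E2F8 had 1.006 and 1.26 against 3.18 and 4.05, a log2 difference of 1.33 (standard error 0.142, adjusted p = 3.34e-05). E2F1, an activator that drives entry into S phase, had 9.77 and 7.52 against 20.8 and 23.4, a log2 difference of 1.31 (standard error 0.138, adjusted p = 3.06e-05). The groups did not overlap in any of these genes.

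All 5 E2F and MYB factors, all 10 licensing and firing genes and all 4 genes of DNA synthesis were higher in Hs-578T ERK5-ko libraries. MCM2 stood at 42.8 and 37.2 in parental and 76.98 and 83.4 in ERK5-ko libraries (0.998, adjusted p = 2.14e-05), PCNA at 75.7 and 64.3 against 103 and 114 (0.63, adjusted p = 0.000963) and CCNE1 at 5.63 and 5.34 against 8.31 and 9.97 (0.68, adjusted p = 0.000603). CDC6, which loads MCM helicase with CDT1, had a log2 difference of 1.21 (adjusted p = 1.59e-06), and CDT1 itself, at 9.19 and 8.86 against 12.5 and 12.3, one of 0.44 (adjusted p = 0.00799). CDK6, a partner of D cyclins, stood at 9.67 and 16.4 against 20.1 and 21.1, so that its parental replicates differed widely (0.69, adjusted p = 0.0476). CDK4, the other such partner, did not pass. In a fit on the 6 Hs-578T libraries alone, CDT1 (adjusted p = 0.0742), GMNN (adjusted p = 0.0501), MCM6 (adjusted p = 0.148) and CDK6 (adjusted p = 0.192) did not pass.

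MKI67, CENPE and CENPF had the highest differences in the G2/M list. The gene models behind their RPKM are 6435, 3822 and 2332 bases long, and that of CENPF is below the 3326 bases set for long models. A model can be far shorter than the exons of its gene, as for CCND1, so the length of the CENPF transcript is not known from it. MKI67 stood at 4.97 and 11.2 in parental and 21.97 and 23.3 in ERK5-ko libraries, a log2 difference of 1.53 (standard error 0.317, adjusted p = 0.00281). CENPE stood at 4.81 and 6.24 against 15.5 and 17.9, a log2 difference of 1.52 (standard error 0.255, adjusted p = 0.000766). CENPF, a large kinetochore and nuclear matrix protein, stood at 14.2 and 31.8 against 53.2 and 60.9, a log2 difference of 1.40 (standard error 0.379, adjusted p = 0.0128). The lower parental value of each gene came from replicate 1, the library low in long genes, and the ERK5-ko libraries lay above both. With gene length corrected and the replicate block, the differences were 1.34 for MKI67 (adjusted p = 2.53e-05), 1.36 for CENPE (adjusted p = 1.59e-05) and 1.31 for CENPF (adjusted p = 0.000132). This setting was chosen after seeing the data, and a pairing of replicates by number is not established.

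Other G2/M genes were higher too. CCNB1, with a gene model of 1058 bases, stood at 166 and 128 in parental and 229.9 and 250.6 in ERK5-ko libraries (0.71, adjusted p = 0.000598), CDC20 at 127 and 96.6 against 166 and 158 (0.55, adjusted p = 0.0122) and TOP2A at 142 and 185 against 239.8 and 268 (0.64, adjusted p = 0.0225). CCNA2 stood at 21.5 and 19.6 against 43.4 and 46.6 (1.11, adjusted p = 1.04e-05) and CDK1 at 44.2 and 31.1 against 71.2 and 78.1 (0.997, adjusted p = 0.000285). In each of these 5 genes both ERK5-ko libraries lay above both parental ones. CDC25B was the G2/M gene that did not pass (-0.05, adjusted p = 0.755). Fitted on the 6 Hs-578T libraries alone, 25 G1/S and 17 G2/M genes were higher, so that 4 G1/S and 10 G2/M calls were lost. MKI67 (adjusted p = 0.0552), CENPF (adjusted p = 0.102), TOP2A (adjusted p = 0.122) and CDC20 (adjusted p = 0.0805) were among those lost. CCNB1 (adjusted p = 0.0212), CCNA2 (adjusted p = 0.00436), CDK1 (adjusted p = 0.0172) and CENPE (adjusted p = 0.0279) were still higher.

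**Figure D3:**
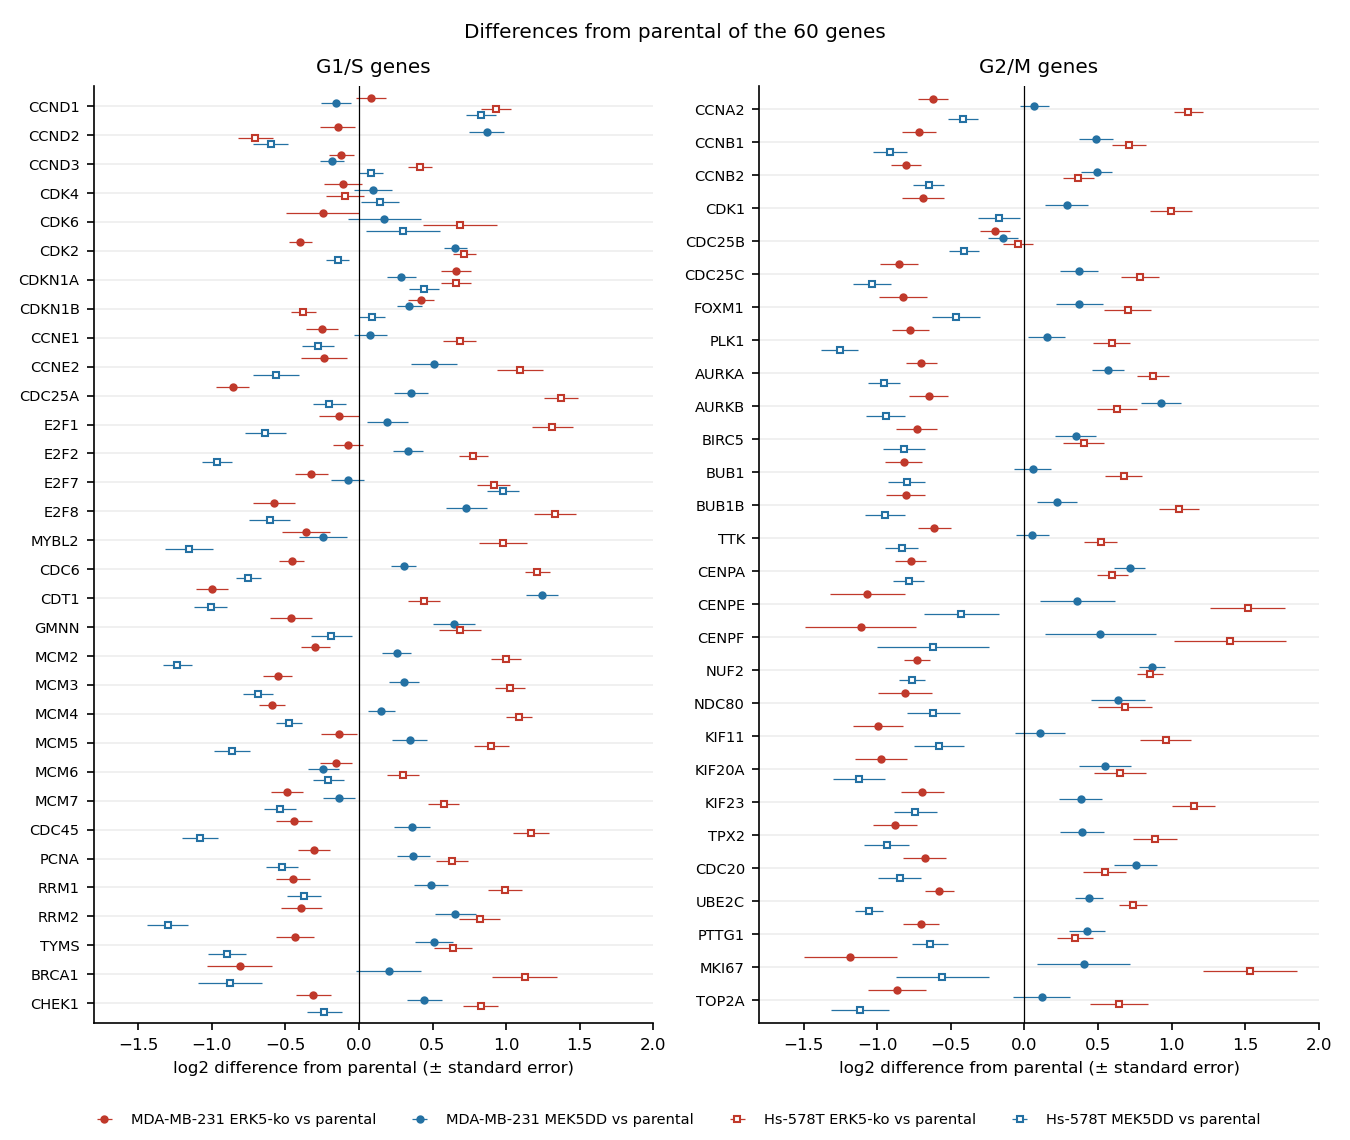
log2 difference from parental libraries on log2(RPKM + 0.5), with standard errors from limma, for the 32 G1/S genes (left) and the 28 G2/M genes (right). Filled circles are MDA-MB-231, open squares Hs-578T, red ERK5-ko and blue MEK5DD. For most genes the filled red and open blue marks lie left of 0 and the open red and filled blue marks right of it, and genes that depart from this order include CCND1, CDKN1A, CDKN1B, E2F7 and CDC25B.

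Hs-578T libraries labelled MEK5DD had less RNA of most of these genes than parental libraries. In the G2/M list 23 of 28 genes were lower and 0 higher, and in the G1/S list 19 of 32 were lower and 3 higher, where 17% of all tested genes were lower and 6.44% higher. The median differences were -0.79 for G2/M and -0.53 for G1/S genes, folds of 0.577 and 0.692, beside -0.08 over all genes. Both the unadjusted p under 0.05 and limma voom gave 0 G2/M genes higher. These counts rest on the spread estimated over all 12 libraries. In a fit on the 6 Hs-578T libraries 11 G1/S and 13 G2/M genes were lower, and in a fit on the 4 libraries compared 0 were, with 17 and 21 lower at an unadjusted p under 0.05 and 49 lower among all tested genes at an adjusted p under 0.05. With a fold below 0.5 also required, 5 genes of each list were lower.

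The lowest G2/M genes were PLK1, KIF20A and TOP2A. PLK1, the Polo-like kinase of mitotic entry, had an RPKM of 74.9 and 63.5 in parental and 25.6 and 32.05 in MEK5DD libraries, a log2 difference of -1.25 (standard error 0.126, adjusted p = 6.37e-05). KIF20A, a kinesin of cytokinesis, had 122 and 115 against 41.8 and 70.05, a log2 difference of -1.12 (standard error 0.176, adjusted p = 0.00117). TOP2A had 142 and 185 against 58.5 and 95.00, a log2 difference of -1.11 (standard error 0.196, adjusted p = 0.00226). Replicate 1 of MEK5DD was the lower in all 3, and both replicates lay below both parental libraries.

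All 7 mitotic kinases and spindle checkpoint genes and all 3 genes of anaphase control were lower. So were all 4 genes of the group of spindle motors and TPX2, a spindle assembly factor. CCNB1 stood at 76.3 and 78.5 in MEK5DD libraries (-0.91, adjusted p = 0.0003), CDC20 at 53.9 and 69.8 (-0.85, adjusted p = 0.00205) and CCNA2 at 13.9 and 16.7 (-0.42, adjusted p = 0.0127). For CDK1, at 35.6 and 30.3, the MEK5DD and parental libraries overlapped (-0.17, adjusted p = 0.427). MKI67 at 3.43 and 7.01, CENPE at 2.64 and 5.79 and CENPF at 8.66 and 21.4 overlapped with their parental libraries as well, with log2 differences of -0.56 (adjusted p = 0.235), -0.43 (adjusted p = 0.256) and -0.62 (adjusted p = 0.27). Without MEK5DD replicate 1 the differences of CENPE and CENPF turned to 0.0727 and 0.0084. With the block MKI67 (adjusted p = 0.0461), CENPF (adjusted p = 0.0407) and FOXM1 (adjusted p = 0.0175) were lower too. Replicate 1, the library low in long genes, was the lower of the parental pair and of the MEK5DD pair for these 3 genes.

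RRM2, MCM2 and MYBL2 were the lowest G1/S genes of Hs-578T MEK5DD libraries. RRM2 had an RPKM of 133 and 116 in parental and 42.6 and 59.4 in MEK5DD libraries, a log2 difference of -1.30 (standard error 0.140, adjusted p = 0.000105). MCM2 had 42.8 and 37.2 against 15.4 and 18.01, a log2 difference of -1.23 (standard error 0.0999, adjusted p = 1.44e-05). MYBL2, the MYB factor that joins MuvB, had 60.4 and 45.5 against 19.3 and 28.1, a log2 difference of -1.15 (standard error 0.162, adjusted p = 0.000617). No library of either group overlapped with the other group in these genes.

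Of the 10 licensing and firing genes 8 were lower in Hs-578T MEK5DD libraries, and all 4 genes of DNA synthesis were. PCNA stood at 52.8 and 44.2 (-0.52, adjusted p = 0.00608), E2F1 at 4.91 and 5.80 (-0.64, adjusted p = 0.00736) and CCNE1 at 4.18 and 4.70 (-0.28, adjusted p = 0.095). Higher in MEK5DD libraries were E2F7, CCND1 and CDKN1A. CDK6 stood at 11.7 and 20.8, with a log2 difference of 0.30 (adjusted p = 0.43) that turned to -0.07 without parental replicate 1 and -0.10 without MEK5DD replicate 2. That of CDK1 turned to 0.08 without parental replicate 1.

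ERK5-ko and MEK5DD libraries of the same line were compared directly as well. In MDA-MB-231, 27 G2/M genes were lower in ERK5-ko than in MEK5DD libraries and 0 higher, with a median difference of -1.20, and 22 G1/S genes were lower and 1 higher (2 with the replicate block), with a median of -0.71. Of all tested genes, 27.9% were lower and 27.1% higher. In Hs-578T, where both groups carry the same passage labels, 28 G2/M genes were higher and 0 lower, with a median of 1.596, and 25 G1/S genes were higher and 1 lower (2 with the replicate block), with a median of 1.41. There 30.7% of all tested genes were higher and 19.2% lower. Limma voom and the unadjusted p under 0.05 likewise gave 0 G2/M genes in the other direction in either line. The member with the largest difference was CDT1 in MDA-MB-231, at -2.24, and CDC45, a subunit of the replicative helicase, in Hs-578T, at 2.25.

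The difference between the lines was tested as a contrast of contrasts, in which the lines share no library. For ERK5-ko, 27 G2/M genes were lower in MDA-MB-231 than in Hs-578T relative to their own parental libraries and 0 higher, and 27 G1/S genes were lower and 2 higher, where 21.5% of all tested genes were lower and 18.3% higher. The median differences were -1.52 for G2/M and -1.14 for G1/S genes, beside -0.05 over all genes. All 26 G2/M genes and all 13 G1/S genes that were lower in MDA-MB-231 ERK5-ko libraries were higher in Hs-578T ERK5-ko libraries. Each of them passed the test of the difference, which is built from the same estimates and so adds no separate support for these genes. MKI67 at -2.72 (standard error 0.448, adjusted p = 0.000722), CENPE at -2.59 (standard error 0.360, adjusted p = 0.00024) and CENPF at -2.51 (standard error 0.536, adjusted p = 0.00353) were the lowest. CDKN1B at 0.80 (standard error 0.121, adjusted p = 0.000417) and CCND2 at 0.56 (standard error 0.169, adjusted p = 0.0213) were the genes with a higher value in MDA-MB-231.

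For MEK5DD the contrast of contrasts had the opposite sign. In the G2/M list 23 genes were higher in MDA-MB-231 and 0 lower, and in the G1/S list 22 were higher and 2 lower, where 21.3% of all tested genes were higher and 18.2% lower. The medians were 1.17 and 0.85, beside 0.05 over all genes. CDT1 at 2.25 (standard error 0.154, adjusted p = 1.15e-06), RRM2 at 1.95 (standard error 0.197, adjusted p = 2.1e-05) and AURKB at 1.87 (standard error 0.189, adjusted p = 2.11e-05) were the highest, and E2F7 at -1.05 (standard error 0.157, adjusted p = 0.000323) and CCND1 at -0.98 (standard error 0.144, adjusted p = 0.000299) the genes that were lower. All 12 G2/M genes that were higher in MDA-MB-231 MEK5DD libraries were lower in Hs-578T ones, as were 13 of 19 G1/S genes. These genes passed this test too, which again uses the same estimates. In both contrasts 0 G2/M genes went the other way at an unadjusted p under 0.05 and by limma voom.

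**Figure D4:**
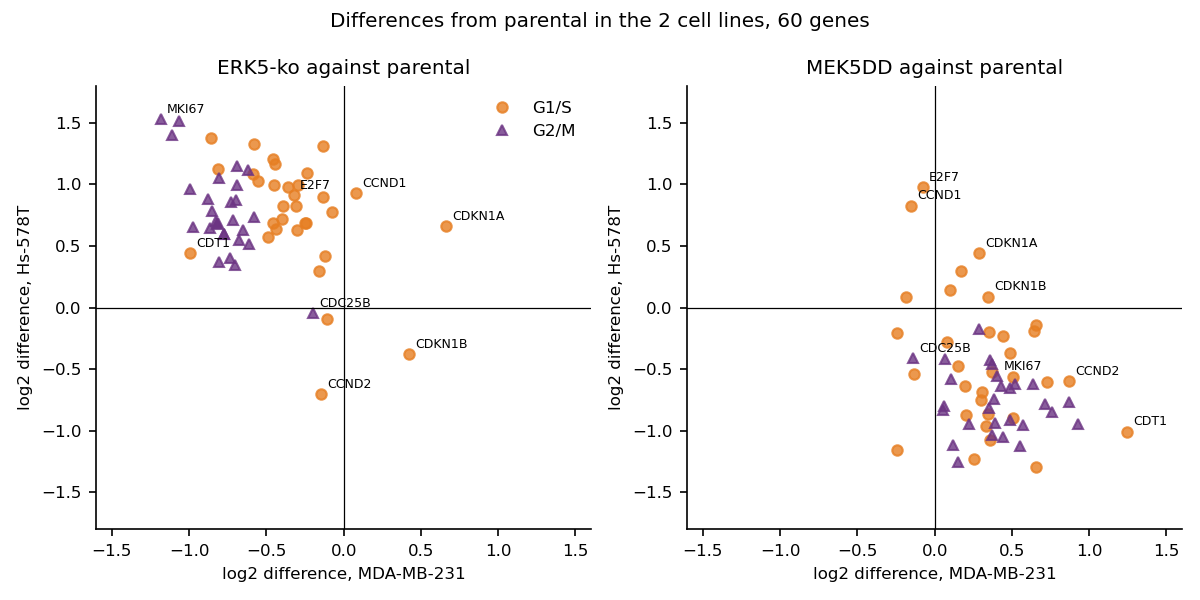
log2 difference from parental libraries in MDA-MB-231 (horizontal) against Hs-578T (vertical) for the 60 genes, with ERK5-ko on the left and MEK5DD on the right. Circles are G1/S genes and triangles G2/M genes. With ERK5-ko nearly all genes fall in the upper left and with MEK5DD most fall in the lower right, while CDKN1A lies in the upper right in both panels.

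Some genes departed from this order, among them both CDK inhibitors and all 3 D cyclins. CDKN1A, which encodes the CDK inhibitor p21 (GRCh38 chr6:36676460-36687339), was higher than parental in all 4 comparisons. Its RPKM was 81.9 and 85.7 in parental, 129 and 137 in ERK5-ko and 98.5 and 106 in MEK5DD libraries of MDA-MB-231, with log2 differences of 0.66 (adjusted p = 0.00126) and 0.29 (adjusted p = 0.0402). In Hs-578T it was 26.96 and 23.7, 38.3 and 42.2 and 32.1 and 36.9, with log2 differences of 0.66 (adjusted p = 0.000434) and 0.44 (adjusted p = 0.0101). The parental libraries were the lowest of each line.

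CDKN1B, which encodes p27, was 35.3 and 32.99 in parental, 47.8 and 43.98 in ERK5-ko and 42.9 and 43.9 in MEK5DD libraries of MDA-MB-231. Both differences passed, at 0.42 (adjusted p = 0.00635) and 0.34 (adjusted p = 0.00747). In Hs-578T its RPKM was 31.4 and 30.02, 23.01 and 24.1 and 31.5 and 33.9, so it was lower in ERK5-ko libraries (-0.38, adjusted p = 0.00492), with no overlap.

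CCND1, cyclin D1 (GRCh38 chr11:69641087-69654474), had the highest mean RPKM of the 60 genes, on a gene model of 1206 bases. In MDA-MB-231 its RPKM was 689 and 690.0 in parental, 769 and 692 in ERK5-ko and 628 and 612 in MEK5DD libraries, and neither difference passed, at 0.08 (adjusted p = 0.657) and -0.15 (adjusted p = 0.258). In Hs-578T it was 130.3 and 152, 259 and 277 and 240.4 and 259, higher in both groups, at 0.93 (adjusted p = 4.06e-05) and 0.83 (adjusted p = 0.000259). The small positive value with MDA-MB-231 ERK5-ko turned to -0.01 under quantile normalization.

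E2F7, an atypical E2F that represses E2F targets, was likewise higher in both groups of Hs-578T. It stood at 8.65 and 10.98 in parental, 18.4 and 19.2 in ERK5-ko and 18.8 and 20.6 in MEK5DD libraries, with log2 differences of 0.91 (adjusted p = 8.25e-05) and 0.98 (adjusted p = 0.000154). In MDA-MB-231 it stood at 41.97 and 41.1, 34.5 and 31.8 and 38.8 and 39.9, with a log2 difference of -0.32 (adjusted p = 0.0671) for ERK5-ko, whose adjusted p was 0.0235 with the block, and no pass for MEK5DD. CCND2 was scarce throughout, with an RPKM of 0.488 and 0.440 in Hs-578T parental, 0.0580 and 0.126 in ERK5-ko and 0.175 and 0.0988 in MEK5DD libraries, down to 3 reads in a library. Both Hs-578T differences passed, at -0.71 (adjusted p = 0.000801) and -0.60 (adjusted p = 0.00458), at levels where few reads decide.

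CDK4, a kinase that D cyclins bind, ranged from 133 to 277 RPKM over the 12 libraries, and its difference from parental libraries passed in none of the 4 comparisons. CDK6 had an RPKM of 28.99 and 26.4 in parental, 25.3 and 21.3 in ERK5-ko and 30.98 and 31.5 in MEK5DD libraries of MDA-MB-231, with log2 differences of -0.25 (adjusted p = 0.565) and 0.17 (adjusted p = 0.632). CDC25B passed only in Hs-578T MEK5DD libraries, at 85.6 and 90.4 in parental against 60.02 and 72.5 (-0.41, adjusted p = 0.0144).

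Parental MDA-MB-231 cells had higher levels than parental Hs-578T cells for most of the 60 genes. In the G1/S list 28 genes were higher and 3 lower, and in the G2/M list 23 were higher and 0 lower, where 46% of all tested genes were higher and 31.3% lower. Median differences were 1.41 for G1/S and 1.20 for G2/M genes, beside 0.19 over all genes. With median-ratio scaling the list medians were 1.18 and 0.97. Without MDA-MB-231 parental replicate 1, 1 G1/S gene was lower in place of 3, and with the replicate block 1 G2/M gene, CDC25B, was lower (adjusted p = 0.0418). At an unadjusted p under 0.05 and by limma voom 0 G2/M genes were lower.

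E2F8 showed the largest difference between the parental lines, 15.8 and 16.2 against 1.006 and 1.26 (3.34, adjusted p = 9.76e-10). MKI67 at 59.2 and 56.98 against 4.97 and 11.2 had a log2 difference of 2.87 (adjusted p = 5.57e-06). CDC25A, MCM3 and CCND3, cyclin D3, had log2 differences of 2.66, 2.46 and 2.45. CDK4, MYBL2 and CCND2 were the genes that were lower in MDA-MB-231, at -0.56 (adjusted p = 0.00204), -0.48 (adjusted p = 0.0177) and -0.45 (adjusted p = 0.00461). BIRC5, the survivin gene, overlapped between the lines at 128 and 129 against 159 and 108 and did not pass.

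Further genes of the same processes were counted from lists of genes that are not among the 60. All of these counts stand beside shares over all tested genes of 6.91% higher and 10.4% lower in MDA-MB-231 ERK5-ko, 17.5% and 23.8% in MDA-MB-231 MEK5DD, 19.7% and 19.7% in Hs-578T ERK5-ko and 6.44% and 17% in Hs-578T MEK5DD libraries. Of 60 other genes of mitosis, 51 were lower and 0 higher in MDA-MB-231 ERK5-ko libraries, in MDA-MB-231 MEK5DD libraries 25 were higher and 2 lower, 57 were higher and 0 lower in Hs-578T ERK5-ko, and 44 were lower and 0 higher in Hs-578T MEK5DD libraries. Of 48 other genes of replication, the counts were 28 lower and 0 higher, 18 higher and 8 lower, 38 higher and 1 lower, and 31 lower and 0 higher in the same order. Of 28 other genes of G1 control, such as retinoblastoma proteins and further inhibitors, 27 were tested. Here 5 were lower and 2 higher, 6 higher and 4 lower, 10 higher and 2 lower, and 6 lower and 2 higher. Their median log2 differences lay between -0.10 and 0.14. Each count of 0 in these lists was also 0 at an unadjusted p under 0.05.

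Replicates of most groups differed little, apart from Hs-578T parental and MEK5DD. In Hs-578T MEK5DD libraries 23 of 28 G2/M genes were higher in replicate 2, with a median difference of 0.36 and a maximum of 1.26 for CENPF. In Hs-578T parental libraries the difference of replicate 2 from replicate 1 ran from -0.55 for BIRC5 to 1.14 for CENPF. Across the 60 genes, the replicate difference had a Spearman correlation with gene model length of 0.534 in Hs-578T parental and 0.525 in Hs-578T MEK5DD libraries. It was -0.449 in MDA-MB-231 ERK5-ko libraries and -0.137 to 0.0554 in the remaining groups (n = 60 genes, which share their libraries). In MDA-MB-231 ERK5-ko libraries the long minus short difference over all genes was 0.243 in replicate 1 and -0.00197 in replicate 2. Without both libraries low in long genes the Hs-578T MEK5DD medians were -0.35 for G1/S and -0.62 for G2/M genes.

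**Figure D5:**
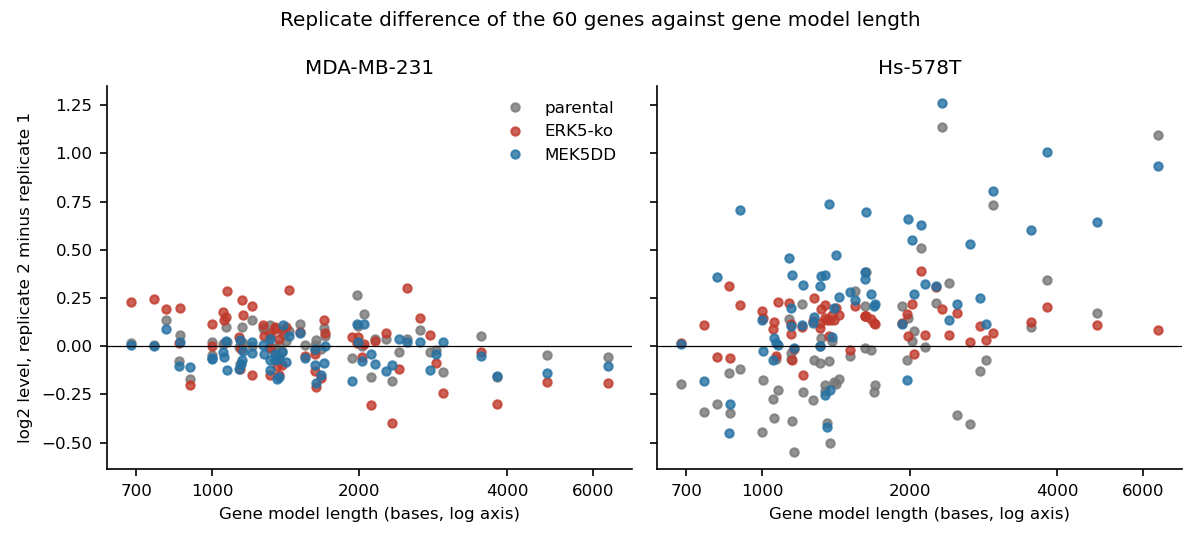
log2 level of replicate 2 minus replicate 1 for the 60 genes against gene model length in bases on a log axis, in MDA-MB-231 (left) and Hs-578T (right). Colours give the group. In Hs-578T the parental and MEK5DD points rise with length, up to 1.26 for CENPF, and the MDA-MB-231 points lie between -0.40 and 0.30.

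Some members share exon bases with a neighbour, and how reads there were assigned is not given in the sources used here. In GENCODE 29 CDK4 shares 43.2% of its exon bases with TSPAN31, TYMS 39.1% with ENOSF1 and CCNE2 37% with INTS8, all on the opposite strand. RRM2 shares 20.2% with AC007240.1 and BUB1B 10.2% with BUB1B-PAK6 on the same strand. CDC20 has a copy, CDC20P1, with a mean RPKM of 2.33 and at most 6.61, and the other listed copies of CCND3, PCNA, RRM2, UBE2C and PTTG1 reached at most 0.283. Values of these genes are uncertain to that extent.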

How the data were processed

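RNA was sequenced from 12 libraries with a stranded mRNA kit. The authors deposited RPKM per gene, and the submitters' processing notes name Trimmomatic 0.32, TopHat2 2.1.1, R 3.3.1, DESeq2 1.12.4 and GRCh38. The counting tool, its strand setting and the annotation release are not given in the sources used here.

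The members and lists were chosen with earlier results of these data known. Whole reads were recovered for 32152 of 32152 genes (100% within 0.001 reads), which gave the library totals and the gene model lengths. The reads served for read counts, a check of replicates and an alternative with limma voom. The lengths served for the comparisons by length and for the length correction. They are model lengths, which can be far below the exon bases of a gene, as for CCND1, and the correction is limited by this. The main values are log2(RPKM + 0.5) of the 13737 protein-coding genes that reached 0.5 RPKM in 2 or more libraries. They were fitted with limma 3.58.1 in R 4.3.3 (variance trend, 6 group means, 6 residual degrees of freedom, moderated statistics, two-sided), with Benjamini-Hochberg adjustment within each comparison. The fit was tested on simulated data. No replicates were identical.

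Replicate numbers were checked for pairing. Deviations of same-numbered libraries within a line correlated at 0.107 to 0.541 in all 6 pairs of groups. The 0.541 is that of Hs-578T parental and MEK5DD, whose replicates 1 are both low in long genes. Between the lines the correlations ran from -0.418 to -0.0599, so these values do not establish a pairing. Results with the number as a block within each line (4 residual degrees of freedom) are given where they change a call.

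Genes given by library were anchors of each phase (MKI67, TOP2A, CCNA2, CCNB1, CDK1, CDC20, PCNA, MCM2, CCNE1, E2F1, CCND1, CCND2, CDK6, CDKN1A and CDKN1B) and, in each comparison with parental cells, the 3 highest and 3 lowest genes that passed within each list. Other genes that passed could be named by role. CENPF, CDC25B, CDK4, BIRC5, E2F7 in MDA-MB-231 and CENPE in Hs-578T MEK5DD were singled out after their values were seen. Promoter windows are from RefSeq. The 14 kinds of alternatives and 3 chosen after seeing the data (gene length corrected by a spline, the same with the block, and both Hs-578T libraries low in long genes left out) are given below.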

Additional observations from a re-analysis of the deposited data

Results flagged for a closer look

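The effect of the ERK5-ko label differed between the lines by the contrast of contrasts. In the G2/M list 27 genes were lower in MDA-MB-231 than in Hs-578T, and in the G1/S list 27 were lower and 2 higher, where 21.5% of all tested genes were lower and 18.3% higher. MKI67 had a difference of -2.72 on the log2 scale, CENPE of -2.59 and CENPF of -2.51, and the genes with a higher value were CDKN1B at 0.80 and CCND2 at 0.56.

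The effect of the MEK5DD label also differed between the lines. In the G2/M list 23 genes were higher in MDA-MB-231, and in the G1/S list 22 were higher and 2 lower, where 21.3% of all tested genes were higher and 18.2% lower. CDT1 had a difference of 2.25, RRM2 of 1.95 and AURKB of 1.87, and the genes with a lower value were E2F7 at -1.05 and CCND1 at -0.98. MAP2K5 itself was raised to different levels in the 2 lines, and its part in these differences was not tested.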

How the results depend on the processing

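Of 996 counts of genes that passed under other settings, 923 stayed within 1.5 times the reported count, and 0 of 480 list medians changed sign. The single genes covered are the 463 differences that passed or that the text gives by the rule or otherwise, and small differences of other genes can change sign too. Of their 12799 values under other settings 545 were no longer past the threshold, 72 newly passed and 7 changed sign, with the cause not tested. The 7 were, against parental, CCND1 in MDA-MB-231 ERK5-ko (-0.0069, quantile normalization), E2F1 in MDA-MB-231 ERK5-ko (0.0154 without ERK5-ko replicate 1, the highest of a range from -0.2866), CDK6 in Hs-578T MEK5DD (-0.0677 without parental replicate 1 and -0.1025 without MEK5DD replicate 2, of a range up to 0.7007), and in Hs-578T MEK5DD also CDK1 (0.0763 without parental replicate 1, of a range from -0.4235), CENPE (0.0727 without MEK5DD replicate 1, of a range from -0.9314) and CENPF (0.0084 without MEK5DD replicate 1, of a range from -1.2504).

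The following counts moved by more than 1.5 times. With a fold above 1.5 or below 0.5 also required, the MDA-MB-231 ERK5-ko counts were 1 G1/S higher, 0 G1/S lower and 2 G2/M lower, the MDA-MB-231 MEK5DD counts 6 G1/S and 5 G2/M higher, the Hs-578T MEK5DD counts 5 G1/S and 5 G2/M lower, and the Hs-578T ERK5-ko count 0 G1/S lower. Between ERK5-ko and MEK5DD in MDA-MB-231 they were 0 G1/S higher and 8 lower, with 0 G1/S lower in Hs-578T, and the line differences were 1 G1/S higher for ERK5-ko and 1 G1/S lower for MEK5DD, with 0 G1/S lower between parental lines. In fits on the groups compared, the Hs-578T MEK5DD counts were 0 G1/S higher, 0 G1/S lower and 0 G2/M lower, and the MDA-MB-231 MEK5DD counts 4 G1/S lower and 21 G2/M higher. In fits on the line, they were 17 G2/M higher for Hs-578T ERK5-ko, 11 G1/S and 13 G2/M lower for Hs-578T MEK5DD, 20 G1/S lower for MDA-MB-231 ERK5-ko, 1 G1/S lower and 20 G2/M higher for MDA-MB-231 MEK5DD, and 2 G1/S higher for MDA-MB-231 ERK5-ko against MEK5DD. With the replicate block the pairing gave 2 G1/S lower for Hs-578T ERK5-ko against MEK5DD, 2 G1/S higher for the same comparison in MDA-MB-231, 1 G1/S lower for MDA-MB-231 MEK5DD and 1 G2/M lower between parental lines, and no call was lost under it in the comparisons with parental cells or between parental lines. Median-ratio scaling gave 2 G1/S higher for MDA-MB-231 ERK5-ko against MEK5DD and 1 G2/M lower between parental lines, and quantile normalization gave these 2 and 1 as well and 1 G1/S lower for MDA-MB-231 MEK5DD. An RPKM of at least 1 gave 1 G1/S higher in the ERK5-ko line difference and 1 G1/S lower for Hs-578T ERK5-ko. Of the settings chosen after seeing the data, length correction gave 2 G1/S lower for Hs-578T ERK5-ko against MEK5DD and 1 G2/M lower between parental lines, and with the replicate block 3 and 1, 5 G1/S higher for Hs-578T MEK5DD, 2 G1/S higher for MDA-MB-231 ERK5-ko against MEK5DD and 21 G2/M higher for MDA-MB-231 MEK5DD. Leaving out both Hs-578T libraries low in long genes gave 2 G1/S higher for MDA-MB-231 ERK5-ko against MEK5DD, 3 G1/S lower and 21 G2/M higher for MDA-MB-231 MEK5DD, and 1 G2/M lower between parental lines.

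Leaving out each library in turn, where a group is left with 1 library assumed to vary like the others, gave these ranges. MDA-MB-231 ERK5-ko had 1 to 2 G1/S higher, 5 to 18 G1/S lower and 19 to 27 G2/M lower, and MDA-MB-231 MEK5DD had 7 to 20 G1/S higher, 0 to 1 lower and 8 to 15 G2/M higher. MDA-MB-231 ERK5-ko against MEK5DD had 0 to 2 G1/S higher and 19 to 24 lower, and in Hs-578T this comparison had 1 to 2 G1/S lower. Hs-578T ERK5-ko had 19 to 27 G2/M higher and Hs-578T MEK5DD 2 to 3 G1/S higher, 16 to 19 lower and 19 to 27 G2/M lower. The ERK5-ko line difference had 1 to 2 G1/S higher, and the parental lines 1 to 3 G1/S and 0 to 1 G2/M lower.

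Each group holds 2 libraries, and the spread used in the tests is pooled over all 12.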
